A study of Homo sapiens with 8 samples.

Results

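MM1.S is an established human line of malignant plasma cells from multiple myeloma. Its RNA was sequenced after 24 h in the solvent DMSO or in 0.5 µM of the compounds C24, MS177N1 or MS177, with 2 libraries in each of the 4 groups. The comparison described here sets the 4 libraries of C24 and MS177N1, as 1 side, against the 2 DMSO libraries, so it draws on 6 of the 8 libraries and on every gene in the table. As background, C24 inhibits EZH2, MS177 was built from C24 as a degrader of EZH2, and MS177N1 is a related control compound that does not degrade it. The comparison therefore asks what small effects are shared by 2 related compounds that leave the EZH2 protein in place; protein was not measured in these files. The labels used here give 1 dose and no structures. The groups are all of 1 cell line, and the labels do not tell whether replicates were grown apart. The p-values therefore rest on a spread that may be only technical.

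EZH2 is the methyltransferase of Polycomb repressive complex 2 (PRC2), which marks histone H3 at lysine 27 and keeps developmental and differentiation genes silent. EZH2 is often abundant in myeloma, and after its block the mark is known to fade gradually, over cell divisions. The transcripts that carry most of the result below come from another genome. Mitochondrial DNA is transcribed by its own polymerase, POLRMT, into long precursors from both strands, which are cut into ribosomal RNAs, transfer RNAs and the messages of a few subunits of respiratory complexes I, III, IV and V. All other subunits of these complexes are made from nuclear genes.

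The reads in the 16295 listed genes numbered between 20000665 and 26619099 per library. After a filter on low counts 14164 genes were tested and 2131 were left out. The libraries of the 2 compounds lay close to DMSO. Over genes with a mean of at least 100 normalized reads, the median absolute log2 difference between a C24 and a DMSO library was 0.080 to 0.087, and between an MS177N1 and a DMSO library 0.079 to 0.084. The 2 DMSO libraries differed from each other by 0.092, more than either differed from any C24 or MS177N1 library, while the 2 C24 libraries differed by 0.066 and the 2 MS177N1 libraries by 0.061. IRF4, PRDM1, XBP1, SDC1, CD38 and TNFRSF17, the markers that define plasma cells, were present in all 6 libraries, with CD38 the lowest at 1140 to 1337 normalized reads. Of the markers of other cells, 8 of 14 for T and NK cells, 6 of 8 erythroid, 5 of 13 myeloid and 3 of 14 stromal and epithelial genes had no entry in the table, and GZMB was at 0 in all 6 libraries. Summed over its listed members, the myeloid list held 315 to 393 normalized reads in DMSO and 320 to 376 in the treated libraries, the T and NK list 214 to 250 and 219 to 296, and the erythroid list 251 to 336 and 291 to 346. The sum of the B cell list was 8434 to 8673 in DMSO and 8694 to 9051 in the treated libraries. That of the stromal and epithelial list was 6821 to 6825 and 5997 to 6460, nearly all of it VIM, which had 6574 and 6531 in DMSO and 5683 to 6163 in the treated libraries. KRT18, a keratin of that list with few reads, lay the other way, at 3.30 and 0.961 in DMSO and 6.29 to 13.3 in the treated libraries, and the median of the list was 0.07. The sums of these 2 lists did not overlap between DMSO and the treated libraries, and their part in the results was not tested.

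The pooled change was small and mostly mitochondrial. The 9 transcripts MT-ND1, MT-ND2, MT-ND4, MT-ND5, MT-ND6, MT-CYB, MT-CO1, MT-CO2 and MT-ATP6 fell with the compounds, and 4 transcripts rose: DDIT4, an inhibitor of mTORC1 signalling, BHLHE40, a repressor of transcription that takes part in the circadian clock, LY75-CD302 and PLA2G4B. The limma test, with Benjamini-Hochberg adjustment over all genes and a threshold of 0.05, called 14 genes of 14164, which is 0.0988%. Of these 4 were higher (0.0282%) and 10 were lower (0.0706%), and the pooled median of all genes was -0.00091 on the log2 scale. At an unadjusted p under 0.05 there were 773 genes (5.46%), 373 higher and 400 lower. The 4 treated libraries all lay above both DMSO libraries for 1028 genes (7.26%) and all below for 1181 (8.34%). Of the 14 called genes, 13 were also called for C24 against DMSO and 4 for MS177N1 against DMSO. A pooled call alone therefore does not show an effect of both compounds.

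The precision limits what could be seen. The median standard error (SE) of a pooled log2 difference was 0.092, and the 95% interval of the difference lay wholly within 1.5-fold of no change for 10333 genes (73%). For the other genes the interval reached beyond 1.5-fold on at least 1 side. Of the 14 called genes, only PLA2G4B differed by more than 2-fold.

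**Figure D1:**
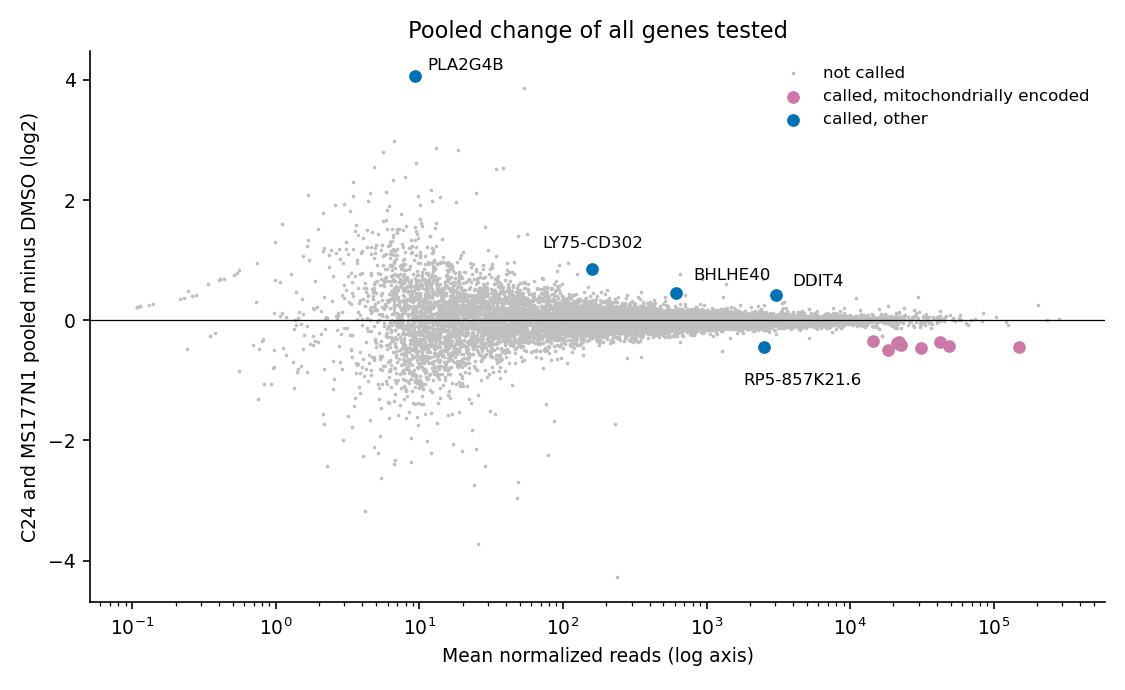
Pooled log2 difference (C24 and MS177N1 minus DMSO, y axis) of the 14164 genes tested against their mean normalized reads (x axis, log scale). Each point is a gene; the 9 called mitochondrially encoded transcripts lie between -0.49 and -0.35 at the right of the plot, and the other 5 called genes are named.

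All 13 mitochondrially encoded subunits were measured, and they are described in full. That choice was made with earlier results of these data known. Of the 13, 9 fell, 0 rose and 4 were not called, with a median pooled log2 difference of -0.37. Each value that follows is in reads divided by the size factor of its library (normalized reads). MT-CO1, the catalytic subunit of cytochrome c oxidase, was the most abundant, with 169648 and 174847 in DMSO, 118858 and 119905 with C24, and 134096 and 137174 with MS177N1. The DMSO libraries were the highest of the 6 and the C24 libraries the lowest, with no overlap between groups. The pooled difference was -0.44 on the log2 scale (SE 0.042, limma adjusted p = 0.000454), a mean of 127508 against 172247. MT-CO2, which takes electrons from cytochrome c, had 47812 and 46908 in DMSO, 35048 and 35003 with C24, and 37057 and 39700 with MS177N1 (-0.37, SE 0.034, limma adjusted p = 0.000179).

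MT-CYB, the cytochrome b of complex III, showed the largest fall of these transcripts in the pooled comparison. It had 21228 and 21795 normalized reads in DMSO, 14279 and 14213 with C24, and 16339 and 16701 with MS177N1, a fall of 28.7% (log2 difference -0.49, SE 0.049, limma adjusted p = 0.000295). MT-ATP6, the proton channel subunit of ATP synthase, had 24482 and 23244 in DMSO, 17457 and 17115 with C24, and 18736 and 20553 with MS177N1 (-0.37, SE 0.041, limma adjusted p = 0.000295). In both cases every treated library lay below both DMSO libraries, and both C24 libraries lay below both MS177N1 libraries.

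The remaining 5 called transcripts encode core subunits of complex I, the NADH dehydrogenase. MT-ND4 had 58166 and 54031 normalized reads in DMSO, 40575 and 37381 with C24, and 44118 and 45259 with MS177N1 (-0.43, SE 0.040). MT-ND5 had 35704 and 36415 in DMSO, 24588 and 24032 with C24, and 27521 and 28633 with MS177N1 (-0.47, SE 0.049). The order of the groups was the same for MT-ND1 (-0.40, SE 0.041) and MT-ND2 (-0.37, SE 0.041), and the limma adjusted p of these 4 lay between 0.00018 and 0.000592. MT-ND6, the subunit transcribed from the opposite strand to the others, had 16859 and 15387 in DMSO, 11463 and 11775 with C24, and 13064 and 14549 with MS177N1 (-0.35, SE 0.053, limma adjusted p = 0.0157). Its groups were apart as well. The labels do not say whether the libraries kept the strand of the RNA, so a fall on both strands was not shown.

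The 4 subunits that were not called were of 2 kinds. MT-CO3 was lower in all 4 treated libraries, with 35503 and 34684 in DMSO, 27225 and 23492 with C24, and 25834 and 30004 with MS177N1, but its treated replicates differed more from each other (-0.40, SE 0.071, limma adjusted p = 0.289). It was called when any one of the 4 treated libraries was left out, with limma adjusted p from 0.00348 to 0.0472. MT-ND3, MT-ND4L and MT-ATP8, the 3 shortest genes of the 13, overlapped between groups. For these the first DMSO library exceeded the second by 1.39, 1.75 and 1.71 times. Their pooled differences were 0.02 (SE 0.17), 0.06 (SE 0.35) and -0.35 (SE 0.21), so the data do not bear on them at the size seen in the others. The count of 10 of 13 subunits with all 4 treated libraries below both DMSO libraries compares with 8.34% of all genes.

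**Figure D2:**
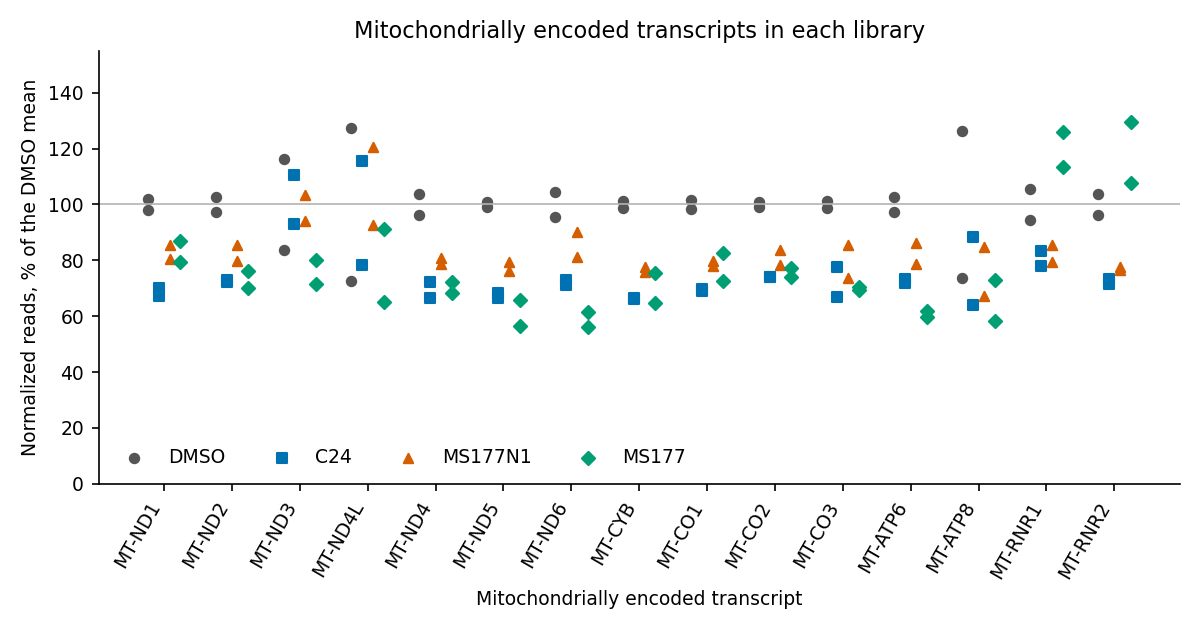
Normalized reads of the 13 mitochondrially encoded subunits and the 2 mitochondrial ribosomal RNAs in each of the 8 libraries, as a percentage of the DMSO mean (y axis, grey line at 100). For the 9 called subunits the C24 libraries sit at 66.1 to 74.0 and the MS177N1 libraries at 76.0 to 90.2, while MT-ND3, MT-ND4L and MT-ATP8 overlap with DMSO; MS177 libraries are shown for their level only.

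As a share of the reads of a library, the 13 subunits made up 2.10% and 2.07% in DMSO, 1.49% and 1.47% with C24, and 1.65% and 1.73% with MS177N1. All treated libraries were below DMSO, with C24 the lowest. An exact two-sided permutation test of 4 libraries against 2 gave p = 0.133, the smallest value its 15 arrangements allow. With MS177, whose own effects are far wider, the share was 1.54% and 1.69%, in the range of the other compounds. In bulk RNA, fewer mitochondrial transcripts per cell and more of all other RNA cannot be told apart.

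The calls changed with the way the compounds were pooled. With C24 and MS177N1 treated as 1 group of 4 libraries, the difference between the compounds entered the spread, and 1 of the 13 subunits, MT-CO2, was called lower, with the median log2 difference still at -0.37. With 1 library left out at a time, 8 to 10 of the 13 were called, and MT-ND6 lost its call without the first DMSO, either C24 or the first MS177N1 library.

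The 2 mitochondrial ribosomal RNAs were lower too but did not pass the test. MT-RNR2, the large one, had 44509 and 48010 normalized reads in DMSO, 33170 and 33924 with C24, and 35460 and 35966 with MS177N1 (-0.42, SE 0.067, limma adjusted p = 0.192). MT-RNR1, the small one, had 5356 and 5978, then 4718 and 4423, then 4504 and 4846 (-0.29, SE 0.056, limma adjusted p = 0.102). All 4 treated libraries lay below both DMSO libraries for each. With MS177 both were instead above DMSO, at 49786 and 59879 for MT-RNR2 and 6419 and 7142 for MT-RNR1. Both were called in the fit that took the compounds as 1 group of 4 and in the fit without the MS177 libraries, and MT-RNR2 also without limma's robust option.

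RP5-857K21.6 was the tenth transcript that fell, from 3076 and 2726 in DMSO to 1825 and 2032 with C24 and 2323 and 2325 with MS177N1 (-0.45, SE 0.065, limma adjusted p = 0.00597). It lies among nuclear copies of mitochondrial genes, so its reads may be shared with the mitochondrial genome and its value is uncertain. The call was lost with the compounds as 1 group of 4 (limma adjusted p = 0.632) and without the first DMSO, the first C24 or either MS177N1 library (0.071 to 0.215). Of its neighbours among such copies, MTATP6P1 had 1869 and 1011 in DMSO and 1019 to 1533 in the treated libraries, which overlap.

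Nuclear genes of the same machinery had no called change in the fit of all 8 libraries. Of 51 nuclear subunits of oxidative phosphorylation, limma called 0 and 3 had an unadjusted p under 0.05, with a median of 0.01. In all 4 treated libraries 5 (9.80%) lay above and 5 (9.80%) below both DMSO libraries, beside 7.26% and 8.34% of all genes. COX6C, a small subunit of cytochrome c oxidase, had the lowest p of the list and was on the higher side, with 1625 and 1504 in DMSO, 1909 and 1937 with C24, and 1837 and 1811 with MS177N1 (0.26, SE 0.069, limma adjusted p = 0.649). In the fit of only the 6 DMSO, C24 and MS177N1 libraries it was called (limma adjusted p = 0.0198). COX7C, another subunit of that enzyme, was at 0.21 (SE 0.063, limma adjusted p = 0.875). Of 27 genes of mitochondrial transcription and RNA handling, 0 were called and 1 had an unadjusted p under 0.05. For both lists the shares over all genes were 0.0988% called and 5.46% at such a p. POLRMT itself had 4006 and 3849 in DMSO, 3470 and 3623 with C24, and 3820 and 3837 with MS177N1 (-0.09, SE 0.043, limma adjusted p = 0.903). FASTKD5, which helps to process mitochondrial messages, was at -0.17 (SE 0.076, limma adjusted p = 0.875), with its groups overlapping.

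Other abundant RNAs were checked for a like shift. The 76 cytosolic ribosomal protein genes had 0 called members and a median of 0.03. An unadjusted p under 0.05 was found for 10, 6 higher and 4 lower, a larger share than the 5.46% of all genes. All 4 treated libraries lay above both DMSO libraries for 7.89% of the 76 and below for 3.95%, beside 7.26% and 8.34% of all genes. The 2 members of lowest p were both lower, RPL26 at -0.13 (SE 0.033) and RPL18 at -0.12 (SE 0.042). The share of reads in ribosomal protein genes was 9.12% and 8.69% in DMSO, 9.47% and 9.27% with C24, and 8.93% and 9.08% with MS177N1, which overlap (exact two-sided permutation p = 0.4). CH507-513H4.6, an entry with nearly the same reads as 2 others beside it, was at 17317 and 19064 in DMSO and at 14109 to 16181 in the treated libraries, all 4 below DMSO.

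DDIT4 had the smallest adjusted p among the genes that rose. It encodes REDD1, a protein induced by hypoxia, glucocorticoids and the stress factor ATF4. DDIT4 had 2589 and 2528 normalized reads in DMSO, 3968 and 4181 with C24, and 2879 and 2940 with MS177N1 (0.43, SE 0.045, limma adjusted p = 0.000267). Both compounds lay above DMSO, and C24 lay well above MS177N1, so the pooled value lies between 2 unlike ones. With MS177 the level was 12185 and 11333. The call was lost when the compounds were taken as 1 group of 4 (limma adjusted p = 0.76), the fit in which their difference counts as spread.

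BHLHE40 encodes a basic helix-loop-helix protein that binds E-box sequences and is itself known as a hypoxia-induced gene. It had 546 and 492 normalized reads in DMSO, 763 and 784 with C24, and 634 and 673 with MS177N1, with no overlap between the 3 groups (0.45, SE 0.070, limma adjusted p = 0.0111). With MS177 it was at 1320 and 1297. The call was lost without the second DMSO library or without any one of the 4 treated libraries, with limma adjusted p between 0.0598 and 0.384.

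The promoters of these 2 genes are shown because they moved together and because hypoxia factors and E-box proteins bind sequences that share the letters ACGTG. The windows are RefSeq's, on the GRCh38.p14 build, chr10:72273674-72273973 for DDIT4 and chr3:4979187-4979486 for BHLHE40, both on the plus strand, from 250 bases before the start to 50 after it. Capitals mark every match to ACGTG or its reverse complement CACGT, and the 2 overlap where they form the E-box CACGTG.
DDIT4: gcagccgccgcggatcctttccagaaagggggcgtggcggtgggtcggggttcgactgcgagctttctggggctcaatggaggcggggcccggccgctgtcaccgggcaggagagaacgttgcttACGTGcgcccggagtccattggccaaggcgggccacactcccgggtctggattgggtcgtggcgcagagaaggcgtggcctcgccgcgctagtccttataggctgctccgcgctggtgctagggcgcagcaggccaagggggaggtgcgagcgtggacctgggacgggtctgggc
BHLHE40: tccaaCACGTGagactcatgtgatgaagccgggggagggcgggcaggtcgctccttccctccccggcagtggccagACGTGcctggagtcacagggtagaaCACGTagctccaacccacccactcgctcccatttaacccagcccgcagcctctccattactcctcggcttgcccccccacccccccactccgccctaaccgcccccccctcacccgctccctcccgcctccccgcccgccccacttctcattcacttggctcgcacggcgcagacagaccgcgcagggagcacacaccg
The DDIT4 window held 1 match and the BHLHE40 window 4, counted over both strands, of which 2 form 1 CACGTG. Of 35116 promoter windows of this length, 7518 (21.4%) held a match. This describes the letters only, and binding was not measured here.

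Of the other 2 genes that rose, both are uncertain because their models overlap another gene. LY75-CD302 is the read-through of LY75, an endocytic receptor, and CD302. It had 102 and 124 normalized reads in DMSO, 187 and 256 with C24, and 198 and 186 with MS177N1 (0.86, SE 0.15, limma adjusted p = 0.0483), whereas LY75 itself had 2638 and 2707 in DMSO and 2466 to 2710 in the treated libraries. PLA2G4B, a phospholipase, was at 0 in both DMSO libraries, at 18.8 and 32.1 with C24, and at 5.25 and 18.2 with MS177N1 (limma adjusted p = 0.0157). Against the level of 3 reads in the DMSO library where that is highest, the mean of the 4 treated libraries was at least 5.63-fold higher. The read-through JMJD7-PLA2G4B had 49.5 and 61.5 in DMSO and 38.7 to 70.3 in the treated libraries, which overlap. JMJD7 itself had 135 and 131 in DMSO and 95 to 113 in the treated libraries, all 4 below DMSO. LY75-CD302 lost its call under 9 of 19 alternatives and PLA2G4B under 7 of 18, among them the omission of single libraries.

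Next below the threshold came AMIGO3 (limma adjusted p = 0.0798), a gene of few reads described below with the difference between the compounds, and RARA, the nuclear receptor for retinoic acid. RARA had 3106 and 2922 normalized reads in DMSO, 3672 and 3881 with C24, and 3516 and 3566 with MS177N1 (0.28, SE 0.053, limma adjusted p = 0.0811). RARA was called in the fit of 6 libraries and in the fit with 1 group of 4. LPCAT1, which remodels membrane phosphatidylcholine, had 7755 and 8189 in DMSO, 6902 and 7177 with C24, and 6842 and 6991 with MS177N1 (-0.19, SE 0.041, limma adjusted p = 0.192), and was called in the fit of 6 libraries (limma adjusted p = 0.0151). SPNS3, a lipid transporter family member, had 12.1 and 11.5 in DMSO and 1.05 to 2.57 in the treated libraries, a few reads each (limma adjusted p = 0.192).

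**Figure D3:**
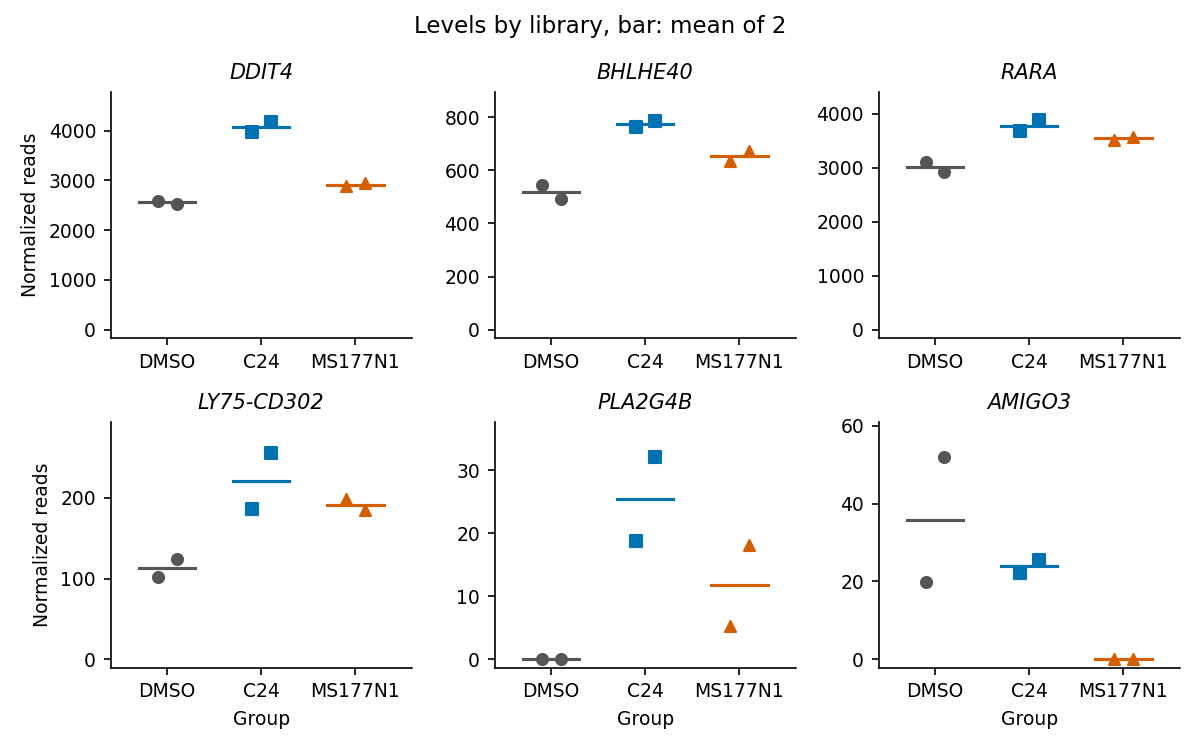
Normalized reads (y axis, from 0) of 6 genes in each library of DMSO, C24 and MS177N1; points are libraries and bars are means of 2. DDIT4 and BHLHE40 show C24 above MS177N1 above DMSO, RARA and LY75-CD302 show both compounds above DMSO, PLA2G4B is at 0 in DMSO and AMIGO3 is at 0 with MS177N1.

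The 2 pooled compounds were compared directly at their common dose and time, which is 1 pair. limma called 2 genes of 14164 (0.0141%), DDIT4 and AMIGO3, both higher with C24, and 634 genes (305 higher, 329 lower) had an unadjusted p under 0.05. For DDIT4 the C24 level exceeded the MS177N1 level by 0.49 on the log2 scale (SE 0.052, 95% interval 0.37 to 0.60, limma adjusted p = 0.00136), with both C24 libraries above both MS177N1 libraries. AMIGO3, an adhesion protein gene that overlaps GMPPB and is uncertain for that reason, had 22.3 and 25.4 with C24, 0 and 0 with MS177N1, and 19.8 and 51.9 in DMSO (limma adjusted p = 0.00767). C24 was at least 7.58-fold above the level of 3 reads in the MS177N1 library where that is highest. The AMIGO3 call was also lost with the deposited log2 values, with voom weights and with a pseudocount of 5. Both calls were lost when any of the 4 C24 and MS177N1 libraries was left out, DDIT4 at limma adjusted p between 0.0501 and 0.27.

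For the called mitochondrial subunits the compounds ranked in 1 order but did not pass the test of their difference. Both C24 libraries lay below both MS177N1 libraries for 9 of the 13 subunits tested, which are the 9 called ones. The share of all genes with this order was not counted, so the ranking is a description only. The differences, C24 minus MS177N1, ran from -0.27 for MT-ND1 (95% interval -0.37 to -0.17) to -0.13 for MT-CO2 (-0.21 to -0.05), with limma adjusted p from 0.193 to 0.997. The intervals exclude 0, but over all genes the adjusted values miss the threshold. The subunits come from shared precursor RNAs and the same 4 libraries, so they are not 9 independent results. For BHLHE40 the difference was 0.24 (95% interval 0.07 to 0.41, limma adjusted p = 0.997), and for LY75-CD302 it was 0.19 (-0.19 to 0.56).

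Over all genes the compounds could be compared only coarsely. The 95% interval of their difference lay within 1.5-fold for 9908 genes (70%). For the rest the data do not show that the compounds act alike.

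Each compound has its own comparison with DMSO, and both use the same 2 DMSO libraries. limma called 13 genes (0.0918%) with C24, 3 higher (0.0212%) and 10 lower (0.0706%). It called 5 genes (0.0353%) with MS177N1, 0 higher and 5 lower, and at an unadjusted p under 0.05 there were 308 higher and 410 lower. MT-CYB was at -0.59 (SE 0.057) with C24 and at -0.38 (SE 0.057) with MS177N1, and MT-CO2 at -0.44 and -0.30 (SE 0.039 for each). DDIT4 was at 0.67 with C24 (limma adjusted p = 1.59e-05) and at 0.19 with MS177N1 (limma adjusted p = 0.965), so its rise in the pooled comparison rests mainly on C24. Of the 14 genes called in the pooled comparison, 13 were called with C24 and 4 with MS177N1. The median over the 13 subunits was -0.47 with C24 and -0.30 with MS177N1.

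**Figure D4:**
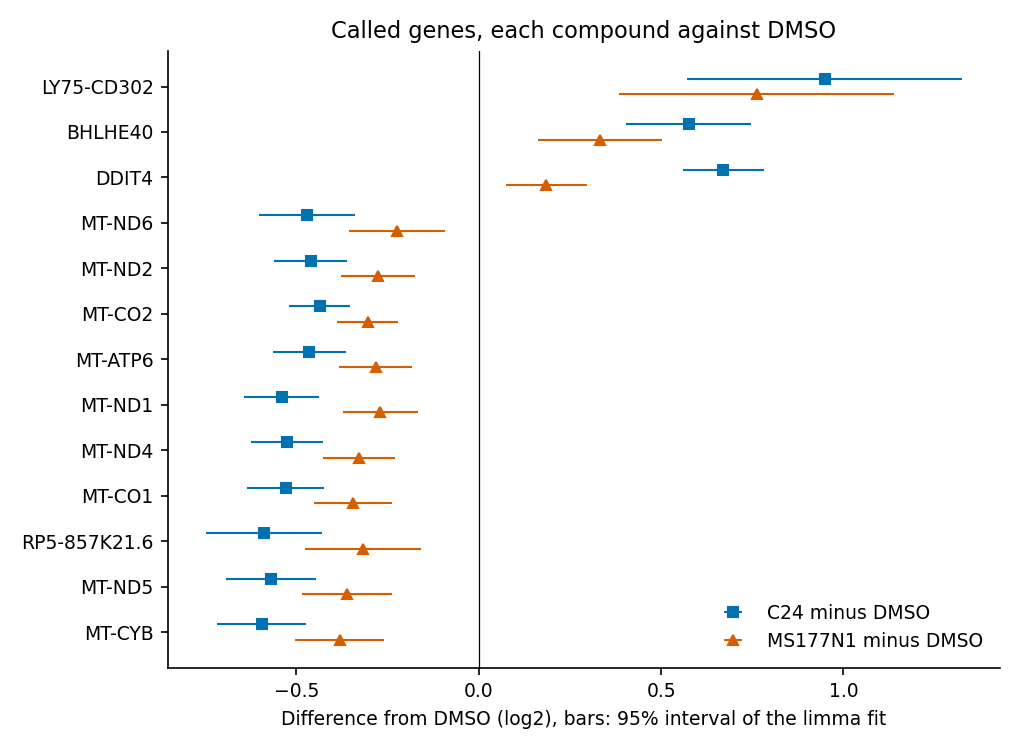
Log2 difference from DMSO (x axis) of 13 of the 14 genes called in the pooled comparison, for C24 (squares) and MS177N1 (triangles), with 95% intervals from the limma fit. The C24 points lie farther from 0 than the MS177N1 points for each gene shown, and PLA2G4B is left out because it was at 0 in DMSO.

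The genes of the targeted complex showed no called change. EZH2 had 2676 and 2687 normalized reads in DMSO, 2713 and 2665 with C24, and 2720 and 2723 with MS177N1 (0.01, 95% interval -0.08 to 0.11). Its partners EED, at 0.02 (SE 0.069), and SUZ12, at -0.02 (SE 0.044), and its paralog EZH1, at -0.01 (SE 0.076), also overlapped between groups. Of 14 PRC2 genes 0 were called and 1 had an unadjusted p under 0.05. With 0.0988% of all genes called and 5.46% at such a p, a short list without a call says little about its members. PHF1, an accessory subunit, had the lowest p, with 500 and 535 in DMSO, 426 and 431 with C24, and 471 and 484 with MS177N1 (-0.19, SE 0.077, limma adjusted p = 0.875). Of 19 genes of PRC1, the complex that reads the mark, 0 were called and 2 had an unadjusted p under 0.05, and CBX2, a reader subunit, had 19.8 and 15.4 in DMSO and 23.6 to 37.7 in the treated libraries (0.82, SE 0.32, limma adjusted p = 0.875).

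The tested genes on the lists of PRC2 targets were not called. Of 29 tested genes described as repressed by EZH2, limma called 0 and 4 had an unadjusted p under 0.05, with a median of 0.02. The shares over all genes were 0.0988% and 5.46%. In all 4 treated libraries 3 (10.3%) lay above and 2 (6.90%) below both DMSO libraries, beside 7.26% and 8.34% of all genes. NR4A1, an orphan nuclear receptor, had 17.6 and 11.5 in DMSO, 35.9 and 27.7 with C24, and 18.9 and 22.7 with MS177N1 (0.80, SE 0.29, limma adjusted p = 0.875), while LTB, a lymphotoxin subunit, was at -0.47 (SE 0.21, limma adjusted p = 0.875). CDKN1C, a cell-cycle inhibitor that Polycomb is known to silence, had 324 and 335 in DMSO and 273 to 342 in the treated libraries. Of 70 developmental Polycomb targets 21 were in the table and 13 were tested, with 0 called, 0 at an unadjusted p under 0.05 and 0 apart from DMSO in all 4 treated libraries. These genes had few reads, as HOXB9 shows with 2.20 and 7.69 in DMSO and 0.909 to 5.25 in the treated libraries, so a change in them was not detectable at this depth.

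CRBN, the receptor of the ubiquitin ligase that MS177 recruits, had 409 and 456 in DMSO and 399 to 439 in the treated libraries (-0.04, SE 0.085). Of its drug-induced substrates, IKZF1 was above both DMSO libraries in all 4 treated ones, by a small margin (2930 and 2927 in DMSO, 2945 to 3181 treated, 0.07, SE 0.043), and IKZF3 overlapped (0.11, SE 0.055). Their limma adjusted p were 0.921 and 0.903, and 0 of 21 genes of that list were called or had an unadjusted p under 0.05. MYC had 15202 and 14228 in DMSO, 14215 and 13874 with C24, and 13674 and 13538 with MS177N1 (-0.09, SE 0.040, limma adjusted p = 0.885). CDKN1A, the p21 inhibitor of cyclin-dependent kinases, had 1146 and 1048 in DMSO, 1207 and 1245 with C24, and 1124 and 1094 with MS177N1 (0.09, SE 0.060, limma adjusted p = 0.925). Of 67 MYC targets, 62 genes of G1/S and DNA replication, 65 of mitosis and 42 p53 targets, 0 were called, and 2, 2, 5 and 2 had an unadjusted p under 0.05. Beside these counts, 0.0988% of all genes were called and 5.46% had such a p.

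Sterol genes lay lower as a list without a single call. Of 33 tested genes of cholesterol synthesis and uptake, 0 were called, and 16 (48.5%) had all 4 treated libraries below both DMSO libraries, with 0 above; over all genes 8.34% lay below and 7.26% above. The median was -0.11, with -0.08 for C24 and -0.13 for MS177N1, beside -0.00091 for all genes. An unadjusted p under 0.05 was found for 11 members, 11 of them lower, beside 5.46% of all genes. TM7SF2, a sterol reductase, had 346 and 373 normalized reads in DMSO, 314 and 310 with C24, and 257 and 259 with MS177N1 (-0.34, SE 0.096, limma adjusted p = 0.763). SQLE, the squalene epoxidase, had 719 and 641 in DMSO, 573 and 586 with C24, and 598 and 511 with MS177N1 (-0.26, SE 0.094, limma adjusted p = 0.875). The members share the same 2 DMSO libraries, so 16 is not a count of independent results.

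Among targets of ATF4, the factor that amino acid shortage and other stress induces, DDIT4 rose and the other 42 of 43 were not called. Of the 43, 13 (30.2%) lay below both DMSO libraries in all 4 treated ones and 3 (6.98%) above. Over all genes 8.34% lay below and 7.26% above. The median of the list was -0.05. PSAT1, an enzyme of serine synthesis, had 3027 and 2826 in DMSO, 2585 and 2661 with C24, and 2477 and 2460 with MS177N1 (-0.20, SE 0.046, limma adjusted p = 0.308). SLC7A11, the cystine transporter, had 284 and 357 in DMSO, 263 and 234 with C24, and 252 and 262 with MS177N1 (-0.33, SE 0.11, limma adjusted p = 0.875). SESN2, a stress sensor upstream of mTORC1, had 757 and 795 in DMSO and 675 to 714 in the treated libraries (-0.16, SE 0.059, limma adjusted p = 0.875). With MS177 these 3 genes were far higher, from 1036 for SLC7A11 to 7006 for PSAT1. Of 20 hypoxia genes, DDIT4 was again the 1 that rose, 19 were not called and 4 lay below both DMSO libraries in all 4 treated ones.

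Of 22 glycolysis genes 0 were called. An unadjusted p under 0.05 was found for 5 of the 22, 2 higher and 3 lower, a larger share than the 5.46% of all genes. In all 4 treated libraries 6 (27.3%) lay below and 2 (9.09%) above both DMSO libraries, beside 8.34% and 7.26% of all genes. The 2 members of lowest p were both lower. ALDOC, an aldolase, was at -0.26 (SE 0.082) and PFKFB4, which sets the level of a glycolytic activator, at -0.36 (SE 0.12), each with limma adjusted p = 0.875. The median of the list was 0.0042, and its sign turned under 5 of 19 alternatives.

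**Figure D5:**
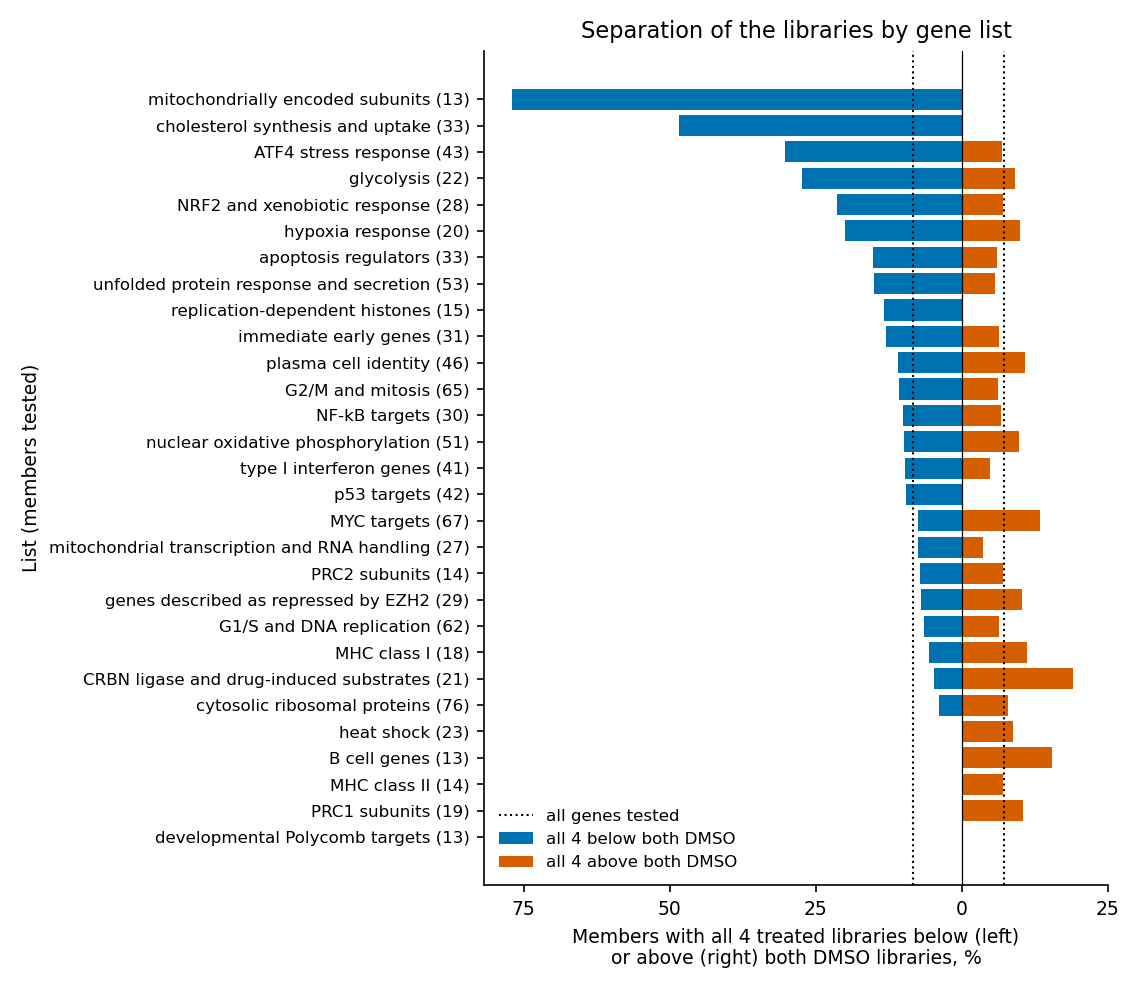
Share of the tested members of each gene list, in percent, whose 4 C24 and MS177N1 libraries all lie below (left, blue) or all above (right, orange) both DMSO libraries, for lists with at least 10 tested members (number in brackets). Dotted lines mark the shares over all genes tested, 8.34% below and 7.26% above; mitochondrially encoded subunits reach 76.9% below and cholesterol genes 48.5%.

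Over the 32 lists other than the mitochondrially encoded subunits, 906 genes were tested and 1, DDIT4, was called, beside 0.0988% of all genes. An unadjusted p under 0.05 was found for 91 of the 906, a larger share than over all genes (773 of 14164, 5.46%). Of these 32 medians, 28 lay within 0.1 of 0 on the log2 scale. Among 46 genes of plasma cell identity 0 were called and 6 had an unadjusted p under 0.05, 1 higher and 5 lower. XBP1, the factor of the secretory programme, had 31974 and 31433 in DMSO, 28979 and 28870 with C24, and 30209 and 29168 with MS177N1 (-0.11, SE 0.032, limma adjusted p = 0.736), and IGJ, the joining chain of antibodies, was on the other side at 0.11 (SE 0.028, limma adjusted p = 0.449). IGJ was called in the fit of 6 libraries (limma adjusted p = 0.0499). IRF4, a factor on which plasma cells depend, was at 0.02 (95% interval -0.05 to 0.10).

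Immune and stress genes gave values of both signs. HERC6, an interferon-induced ligase, had 84.7 and 71.1 in DMSO, 126 and 132 with C24, and 106 and 110 with MS177N1, with no overlap (0.60, SE 0.14, limma adjusted p = 0.401), but TRIM25, another gene of that list, was at -0.12 (SE 0.040), and 0 of 41 interferon genes were called, with 4 at an unadjusted p under 0.05. CCL3, a chemokine of myeloma cells, had 8799 and 8026 in DMSO, 10063 and 9956 with C24, and 9310 and 9313 with MS177N1 (0.20, SE 0.068, limma adjusted p = 0.875). CCL3 was called in the fit of 6 libraries (limma adjusted p = 0.0122). HLA-DRA, a chain of MHC class II, was at 0.11 (SE 0.038, limma adjusted p = 0.875). HLA-DQA1, another such chain, had 0 and 6.73 in DMSO and 4.28 to 11.8 in the treated libraries, which overlap (1.66, SE 0.73, limma adjusted p = 0.875). 0 of 30 NF-kB targets, 0 of 14 MHC class II genes, 0 of 53 genes of the unfolded protein response and secretion and 0 of 23 heat shock genes were called, with 3, 2, 4 and 2 at an unadjusted p under 0.05. For comparison, 0.0988% of all genes were called and 5.46% had such a p.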

How the data were processed

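RNA-seq was analysed in 8 libraries, 2 per group. The authors deposited log2 values for 16295 genes, normalized per the file headers; per the submitters' processing notes, STAR 2.4.2, Salmon 0.1.19, DESeq2 1.38.2 and the build hg19 were used, with no role given for each. From the values, the scale is a variance-stabilizing one with a shared minimum of 5.97, and its inversion gave whole reads within 0.01 for 130360 of 130360 values. Normalized reads are these reads over the authors' size factors. log2(normalized reads + 1) was fitted with limma 3.58.1 (trend, robust, statmod 1.5.0, R 4.3.3) over all 4 groups, with contrasts giving C24 and MS177N1 equal weight. Tested genes had 10 reads at the median library size in 2 libraries and 15 in all. Calls used Benjamini-Hochberg adjusted p under 0.05. The 33 lists held 1077 genes, 112 of them not in the table, and were described by counts and medians. The gene names include 21 that read as dates, and 4 entries had duplicate names. The limma fit was tested on simulated data.

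Genes named are all called genes, the mitochondrially encoded subunits, 11 genes of the EZH2 and CRBN axis, the 2 members of lowest p of every other list, and the next in p up to 20. Members and lists were chosen with earlier results of these data known. Alternatives covered libraries, pooling, block, scaling, filters, pseudocount, weights and left-out replicates.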

Additional observations from a re-analysis of the deposited data

Results flagged for a closer look

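Among the 91 named genes, 4 had 1 of the 4 C24 and MS177N1 libraries far from the other 3, by the gap to the nearest library over the whole range (above Dixon's 95% critical value, which chance passes in about 1 of 20 groups). The ratio was 0.973 for MCM7, a helicase subunit of DNA replication, with 12524 and 12518 normalized reads with C24 and 12241 and 12525 with MS177N1. It was 0.862 for PTPN6, a phosphatase of B cell signalling, with 3489 and 3509 with C24 and 3479 and 3700 with MS177N1. It was 1.0 for AIF1 and 0.853 for ITGAM, both myeloid markers with few reads: AIF1 had 1.05 in the first MS177N1 library and 0 in the other 3, and ITGAM had 19.1 in the second MS177N1 library and 7.74 to 9.41 in the others.

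The effect of the 2 compounds differed by a test of the difference itself for 2 genes. C24 minus MS177N1 was 0.485 on the log2 scale for DDIT4 (limma adjusted p = 0.00136), with 2 of 2 C24 libraries above both MS177N1 libraries. For AMIGO3 it was 4.632 (limma adjusted p = 0.00767), a fitted value that depends on the added count of 1 because both MS177N1 libraries were at 0.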

How the results depend on the processing

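With 2 libraries per group, the counts of called genes depend on the fit. Of the pooled comparison, 4 genes were called higher and 10 lower. A fit of only the 6 libraries called 11 and 18, taking C24 and MS177N1 as 1 group of 4 called 5 and 3, and voom weights called 2 higher. The fit of 6 libraries kept all 4 higher and all 10 lower genes. The fit with 1 group of 4 kept 3 of the 4 higher and 1 of the 10 lower genes. C24 against MS177N1, with 2 called, gave 15 with 6 libraries and 1 with a pseudocount of 5. C24 against DMSO, with 13, gave 28 with 6 libraries. MS177N1 against DMSO, with 5, gave 18 with 6 libraries, 3 with total-read scaling, 9 with a pseudocount of 5, 8 with the deposited log2 values, 8 with voom weights and 1 without the robust option. The cause was not tested. Leaving out 1 library at a time gave 1 to 5 higher and 8 to 11 lower genes in the pooled comparison, 0 to 2 for C24 against MS177N1, 10 to 14 for C24 against DMSO and 0 to 4 for MS177N1 against DMSO; the lone sample of a group is then assumed to vary like the others.

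The replicate numbers were not shown to pair the samples: replicate deviations of 10243 genes correlated at -0.07 between DMSO and C24, -0.05 between DMSO and MS177N1, 0.25 between C24 and MS177N1, 0.32 between DMSO and MS177, 0.15 between C24 and MS177 and 0.09 between MS177N1 and MS177. With the replicate block, 17 genes were lower in the pooled comparison, 20 were called for C24 against DMSO and 11 for MS177N1 against DMSO; MT-RNR1, MT-RNR2 and RARA were called in the pooled comparison.

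Signs turned only among genes that were not called, and only with 1 library left out, where the pooled log2 difference ran from -0.063 to 0.052 for EZH1, -0.022 to 0.054 for EED, -0.12 to 0.039 for CRBN, -0.0034 to 0.049 for IRF4, -0.22 to 0.26 for MT-ND3, -0.34 to 0.46 for MT-ND4L, -0.74 to 0.033 for MT-ATP8, -1.85 to 0.26 for AIF1 and -0.10 to 0.34 for HBD. The pooled values of the 14 called genes kept their direction under every alternative that gave one. The median of the 13 subunits stayed between -0.43 and -0.34 and that of the cholesterol list between -0.11 and -0.08.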
